A study of Homo sapiens with 8 samples.

Results

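The γH2AX regions on both flanks of the chromosome 1 centromere, from position 118000000 to 150000000 of hg19, are described here in 3 peak lists from A2780 cells. A peak was taken as a member when its midpoint lay in that interval. The interval held 1356 of the 9709 untreated regions, 2305 of the 25671 cisplatin regions and 2008 of the 17789 Pt-ttpy regions on chromosomes 1 to 22 and X, or 5669 of 53169 over the 3 lists. The interval was chosen on the number of called regions in these same lists, so that its density is a description and not a finding. No region of any list had its midpoint from 122000000 to 142000000, a stretch that hg19 leaves largely unassembled. The members therefore form a short-arm side, below that stretch, and a long-arm side, above it. The long-arm side held 1234 untreated, 2029 cisplatin and 1774 Pt-ttpy regions, or 91.0%, 88.0% and 88.3% of the members.

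γH2AX is histone H2A.X phosphorylated on its tail by the kinases of the DNA damage response, and it collects in chromatin around double-strand breaks. Centromere flanks are made of satellite repeats that grade into segmental duplications, long blocks of sequence present in several near-identical copies. On the chromosome 1 long arm the band 1q21.1 is among the best known duplicated parts of the human genome. It carries copies of the NBPF and NOTCH2NL gene families, and NOTCH2, the source of the NOTCH2NL copies, lies on the short-arm flank. Short reads from such copies cannot always be placed at 1 position. The long-arm side as cut here runs past 1q21.1 into the next band, 1q21.2.

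A2780 is a human ovarian carcinoma cell line. Chromatin was immunoprecipitated with an anti-γH2AX antibody in 3 groups of 2 samples, and 2 further samples were untreated input chromatin without antibody. The first group was untreated, the second had cisplatin, which crosslinks DNA, at its IC80 for 96 hours, and the third had Pt-ttpy at its own IC80 for the same time. Pt-ttpy is, per the series' title, a platinum complex with affinity for G-quadruplexes, the folded structures that guanine-rich DNA can form. No molar dose was used here. Each list stands for both samples of its group, so every value below comes from 1 list a condition, with no replicate check and no p-value. Input values were not analysed here. The lists carry no read totals, and their depth was not determined here.

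Folds and q-values below are the authors' own, as deposited by the peak caller. Each fold went with a single p-value in its list, and the lowest fold called was 3.01 for untreated cells, 2.60 for cisplatin and 2.62 for Pt-ttpy. The lists thus differed in their lowest call, and a fold is compared only within its list. Both treated lists held every peak number up to their last, whereas the untreated list lacked 8848 of 18049 numbers (49.0%). Gene coordinates and sequence of hg19 were not used here, so regions are given by position and not by gene.

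A region tied for the highest q of its whole list, in all 3 lists, lay on the short-arm side at the very edge of the called sequence. It ran from 121481540 to 121485444 on chromosome 1 in untreated cells, from 121481508 to 121485443 after cisplatin and from 121481508 to 121485440 after Pt-ttpy. Its width was 3905 bp, 3936 bp and 3933 bp, and its fold was 60.4, 35.1 and 26.3. In the same order, 18, 27 and 36 regions shared the highest q of their list. The folds stand each within its own list and set no order between the lists. The position and width were thus nearly the same with and without a drug. How reads from repeat copies bear on the strong regions of either side was not tested, and input was not analysed.

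A second region stood just beside it, from 121478377 to 121480613 (2237 bp) in both the untreated and the Pt-ttpy list and from 121478375 to 121480618 (2244 bp) in the cisplatin list. The folds were 44.5 untreated, 31.7 with cisplatin and 24.8 with Pt-ttpy. In all 3 lists this region ranked among the 6 strongest of the short-arm side.

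Another dense stretch began at 121351589 on the short-arm side. Its first part after cisplatin was 1 region of 3724 bp up to 121355312, with a fold of 31.3. The Pt-ttpy list had 2 regions over the same span, of 2099 and 1512 bp, the first with a fold of 23.7. The untreated list had 4 pieces, of 879, 1084, 808 and 591 bp, and the first 3 carried the same fold, 46.9. The next part, up to 121360967, was called as 4 untreated, 2 cisplatin and 3 Pt-ttpy regions covering 4507, 5072 and 5138 bp. The widest Pt-ttpy region of the side, 4668 bp from 121355947 to 121360614 with a fold of 25.1, lay there. At 121386238 a shorter untreated region of 250 bp had a fold of 43.6. It was matched by a cisplatin region of 800 bp (fold 28.2) and a Pt-ttpy region of 328 bp (fold 21.7). The same cisplatin region also spanned a second untreated piece of 346 bp (fold 14.4) and a second Pt-ttpy piece of 338 bp (fold 9.21). These strong regions lay in the same places in the 3 lists and differed mainly in how they were cut into pieces.

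Most of the short-arm side was empty. From its outer limit to 120532206 the untreated and the Pt-ttpy list held no region, and the cisplatin list held 4 isolated ones. The first of these, from 118824785 to 118824888, had a fold of 4.50. Regions then began abruptly. The stretch from 120532207 to 120696375 held 24 regions in the untreated list, 112 after cisplatin and 87 after Pt-ttpy, covering 2.79, 23.9 and 19.0 kb. After an empty stretch of 326.7 kb from 120782663, 18 untreated, 25 cisplatin and 25 Pt-ttpy regions lay between 121109324 and 121143008. The last 134 kb before the gap, from 121351589 to 121485444, held 79 untreated, 119 cisplatin and 111 Pt-ttpy regions, covering 21.9%, 34.6% and 32.4% of it. Between the first 2 of these stretches, from 120748008 to 120782662, lay 1 untreated, 15 cisplatin and 11 Pt-ttpy regions. Treated regions were thus several times as many as untreated ones in the 2 outer blocks and less than 2 times as many in the 2 inner ones.

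**Figure D1:**
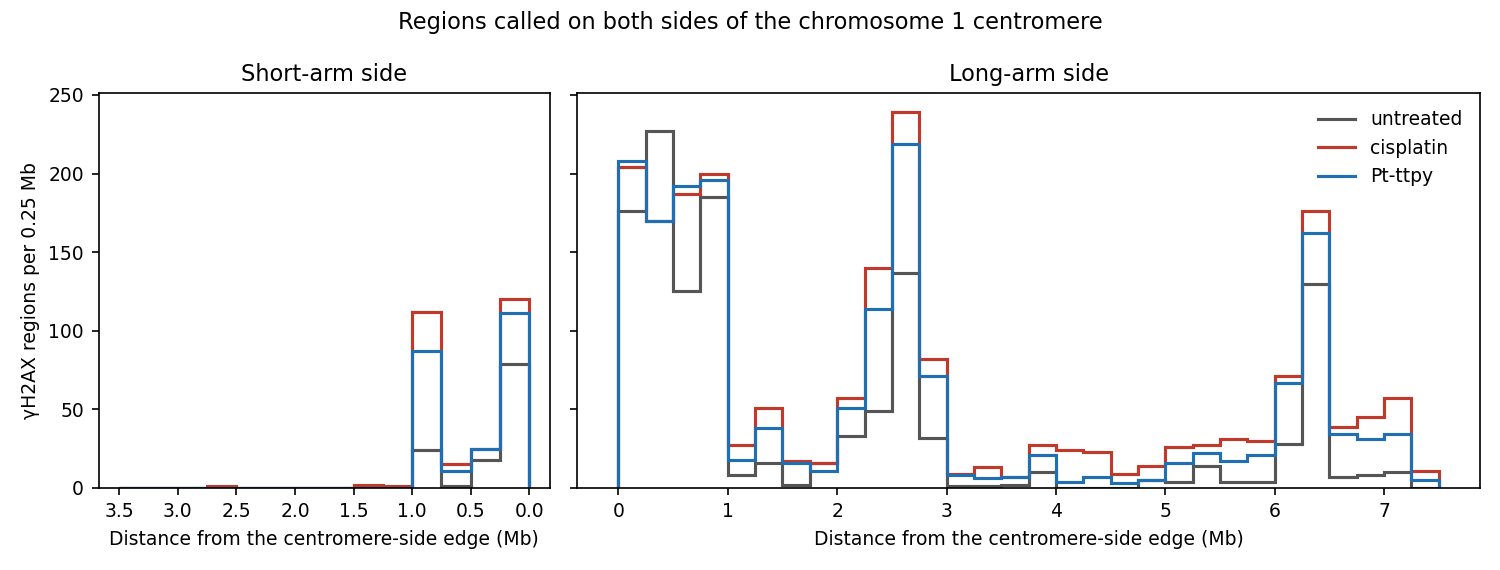
Number of γH2AX regions per 0.25 Mb (vertical axis) against distance in Mb from the outermost called base beside the centromere, for the short-arm side (left, distance increasing to the left) and the long-arm side (right). Lines are the untreated (grey), cisplatin (red) and Pt-ttpy (blue) lists. The short-arm regions lie almost entirely within 1 Mb of the edge, and on the long arm all 3 lines are high in the first 1 Mb, but the highest untreated bin (227) lies there and the highest cisplatin (239) and Pt-ttpy (219) bins lie farther out, from 2.5 Mb.

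On the long-arm side regions came in separate blocks that the 3 lists had in common. When the side was parted wherever all lists were empty for over 50 kb, 31 blocks resulted, 24 with untreated, 31 with cisplatin and 26 with Pt-ttpy regions. The 7 blocks without an untreated region held 9 cisplatin regions at most. Within blocks the order of the lists was not fixed. Cisplatin regions were more numerous than untreated ones in 30 of 31 blocks and more numerous than Pt-ttpy regions in 25. Pt-ttpy regions exceeded cisplatin regions in 3 blocks and untreated regions in 22.

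The 4 blocks nearest the centromere were dense in all lists. The first, from 142535444 to 142730614, held 173 untreated, 203 cisplatin and 207 Pt-ttpy regions. The second, from 142781100 to 142967686, was the 1 block in which the untreated list had more regions than cisplatin, with 230 against 171, and 171 for Pt-ttpy. Its untreated regions nevertheless covered less, 50.1% of the block against 74.7% for cisplatin and 75.1% for Pt-ttpy. A region count alone therefore put the lists here in the opposite order to the covered length. The third, from 143117827 to 143289853, held 125, 189 and 193 regions, and the fourth, from 143343078 to 143544505, held 189, 202 and 199. In the fourth block 32.9%, 59.9% and 59.4% of the sequence was covered.

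Farther out, several further blocks were dense. That from 144506010 to 144618870 held 48 untreated, 70 cisplatin and 61 Pt-ttpy regions, covering 10.9%, 28.4% and 24.8% of it. The block from 144816869 to 145382113, the longest of the dense ones at 565 kb, held 218 untreated, 461 cisplatin and 404 Pt-ttpy regions, covering 44.8, 188.6 and 163.7 kb of it. The block from 148753677 to 148954378 held 103, 143 and 130 regions, covering 13.6%, 35.9% and 34.0%. Next to it, the short block from 149004538 to 149035646 held 29, 36 and 36 regions, or 93.2, 115.7 and 115.7 per 100 kb, which for the drugs is above each of the 4 inner blocks. In these parts too the covered share with either drug was more than that without, and the drugs were close to each other.

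Between these parts most blocks were sparse. The short block from 147707025 to 147731142 was not sparse for the drugs. It held 3 untreated, 24 cisplatin and 15 Pt-ttpy regions, covering 1.73%, 26.7% and 18.7%. The block from 146389902 to 147237691, the longest of all at 848 kb, held 10 untreated, 82 cisplatin and 34 Pt-ttpy regions, covering 0.120%, 1.85% and 0.848%. The block from 145618308 to 145831704 held 1, 15 and 10 regions. The last one, from 149866670 to the 150 Mb limit, held no untreated, 9 cisplatin and 5 Pt-ttpy regions.

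By windows of 1 Mb, named here by their first position, the treated lists exceeded the untreated one least next to the centromere on either side. In the window from 142000000 the ratio to untreated regions was 0.928 for cisplatin and 0.938 for Pt-ttpy. The ratios were 1.39 and 1.32 in that from 143000000, 2.56 and 2.04 from 144000000, 1.87 and 1.72 from 145000000, and 1.95 and 1.66 from 148000000. In the sparse windows they were 6.46 and 3.08 (from 146000000, 13 untreated regions) and 5.90 and 2.90 (from 147000000, 10 untreated regions). The window from 149000000 had 54 untreated, 188 cisplatin and 140 Pt-ttpy regions, and its ratios were 3.48 and 2.59. On the short arm the window from 120000000 had 25, 130 and 98 regions and ratios of 5.20 and 3.92, and that from 121000000 had 97, 145 and 136 regions and ratios of 1.49 and 1.40. A ratio over few untreated regions is loosely set by counting, and the ratio and its own denominator are not independent measures.

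The strongest regions of the long-arm side formed a compact group between 143278574 and 143284237. The first of them ran from 143278579 to 143279697 in untreated cells (1119 bp, fold 40.6), from 143278578 to 143279702 after cisplatin (1125 bp, fold 31.2) and from 143278574 to 143279703 after Pt-ttpy (1130 bp, fold 24.5). The region at 143282144 to 143283002 in the untreated list (859 bp, fold 38.5) was matched by 866 bp with cisplatin (fold 30.6) and 862 bp with Pt-ttpy (fold 24.2). The region at 143283591 to 143284232 (642 bp, fold 34.3) was matched by 650 bp (fold 27.9) and 637 bp (fold 23.3). Between them, from 143279848 to 143281124, there was 1 cisplatin region of 1277 bp, while the untreated list had pieces of 989 and 116 bp and the Pt-ttpy list pieces of 994 and 119 bp. In this group the edges of the 3 lists stood within a few bases of each other. Read placement among repeat copies was not checked for the group, and input was not analysed. The strongest untreated region of the side lay elsewhere, from 145277275 to 145277522, with a fold of 46.6. It was only 248 bp wide, against 956 bp with cisplatin (fold 27.2) and 387 bp with Pt-ttpy (fold 22.1).

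At the long-arm edge of the gap a region of similar size was called in all lists. It ran from 142535459 to 142539888 untreated (4430 bp, fold 32.8), from 142535449 to 142539985 with cisplatin (4537 bp) and from 142535444 to 142539990 with Pt-ttpy (4547 bp, fold 20.7). It was the widest untreated region of the side, the fifth widest of the cisplatin list there and the sixth widest of the Pt-ttpy list.

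The widest treated regions of the side were weaker and corresponded to several untreated pieces. The widest Pt-ttpy region, 6689 bp from 142931891 to 142938579 with a fold of 9.08, overlapped 9 untreated pieces covering 4790 bp in all and 4 cisplatin regions covering 6257 bp. The widest cisplatin region, 5602 bp from 145113452 to 145119053 with a fold of 7.44, spanned 4 untreated pieces (4972 bp) and matched 2 Pt-ttpy regions (5657 bp). A cisplatin region of 5535 bp from 143511247 to 143516781 (fold 11.6) was matched by a Pt-ttpy region of 6090 bp from 143511252 to 143517341 (fold 11.7), where the untreated list had 5 pieces covering 5376 bp. From 142832747 to 142838111 there was 1 cisplatin region of 5365 bp, against 7 untreated pieces covering 3739 bp and 3 Pt-ttpy regions covering 5141 bp. From 142950831 to 142956091 there was 1 cisplatin region of 5261 bp, against 6 untreated pieces (4862 bp) and 2 Pt-ttpy regions (5041 bp). The first of these untreated pieces began at 142950174, so part of their length lay outside the cisplatin region. The pieces thus covered most, but not all, of what the treated lists called as 1 region.

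Of the other wide regions named, 3 were called as 1 region in each list. From 143538736 to 143542083 the untreated list had 3348 bp (fold 16.2), with 3408 bp after cisplatin (fold 15.2) and 3436 bp after Pt-ttpy (fold 13.7). The untreated region from 142916655 to 142919622 (2968 bp, fold 10.8) was matched by 3986 bp with cisplatin and 4459 bp with Pt-ttpy. At the start of the second block, 142781129 to 142783819 (2691 bp, fold 9.02), the matches were 4167 and 3801 bp. The other 2 were in pieces in at least 1 list. A Pt-ttpy region of 5401 bp from 143532736 to 143538136 had a fold of 13.0. It overlapped 3 untreated pieces (4934 bp) and 2 cisplatin regions (6084 bp), which reached beyond both of its ends. From 145288281 to 145292883 the Pt-ttpy region was 4603 bp wide and the cisplatin region 4535 bp, against 5 untreated pieces covering 3322 bp.

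**Figure D2:**
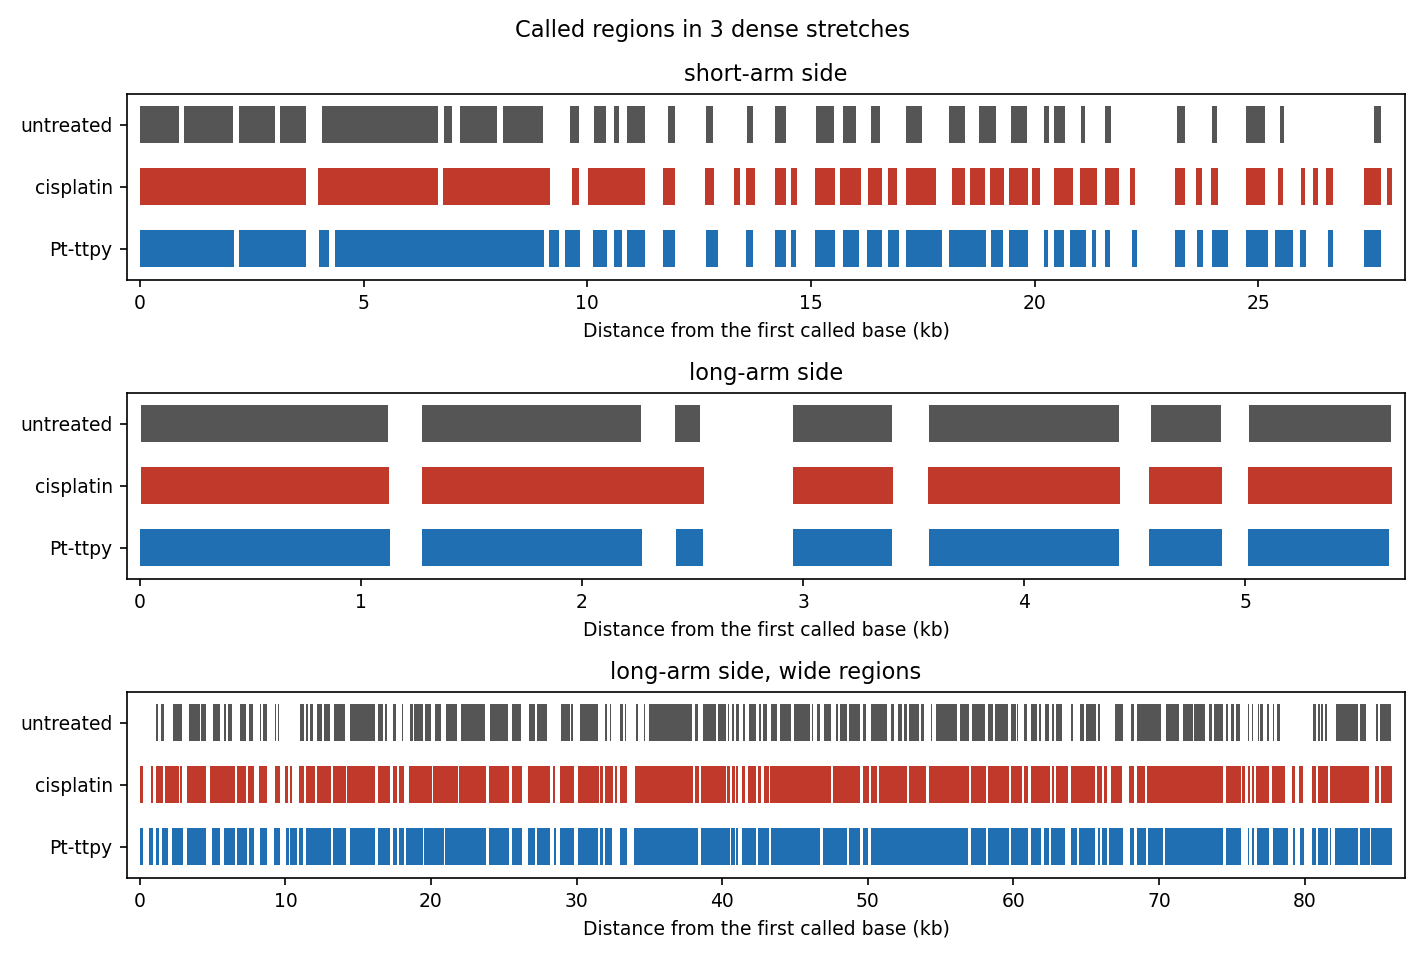
Called regions (blocks) of the untreated, cisplatin and Pt-ttpy lists along 3 dense stretches, as distance in kb from the first called base of each stretch: the longest short-arm run of cisplatin regions at most 1 kb apart, the strongest long-arm group, and a long-arm stretch of wide regions. In the last, 117 untreated regions cover 49.6 kb, 78 cisplatin regions cover 69.4 kb and 73 Pt-ttpy regions cover 69.4 kb.

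Median widths were larger in the treated lists than in the untreated list on both sides. On the long-arm side the median width was 178 bp untreated (quartiles 110.0 and 323 bp), 230.0 bp with cisplatin (143 and 440.0 bp) and 250.5 bp with Pt-ttpy (145 and 492.5 bp). On the short-arm side it was 151.5, 188.5 and 202 bp, but the upper quartile of cisplatin there (299 bp) was below that of untreated (306 bp), with 322.5 bp for Pt-ttpy. The medians over the whole lists were 164, 169 and 185 bp, and those of the other chromosomes 163, 180.0 and 198 bp. Regions over 1 kb made up 3.32% of the untreated long-arm regions (41), 8.87% of the cisplatin ones (180) and 9.08% of the Pt-ttpy ones (161). Short-arm shares were close, 3.28%, 3.26% and 3.42%, from 4, 9 and 8 regions. These are widths of called peaks, and with fragments of 200 to 700 bp they are no measure of the spread of γH2AX around a break.

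The untreated list was also put together differently. It held 187 long-arm and 18 short-arm regions under 100 bp, down to 1 bp, a width class that both treated lists lacked. On the long-arm side 121 peak numbers of the untreated list appeared on more than 1 piece, 262 pieces in all, and 317 of the 1234 summits (25.7%) lay outside their own region. Among short-arm regions 5 numbers appeared on 11 pieces. With pieces of 1 number joined, the untreated long-arm median was 199 bp, below both treated medians. With regions at most 1 kb apart joined, the long-arm medians were 444 bp untreated, 435 bp with cisplatin and 513 bp with Pt-ttpy, so the order of widths did not hold for cisplatin.

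**Figure D3:**
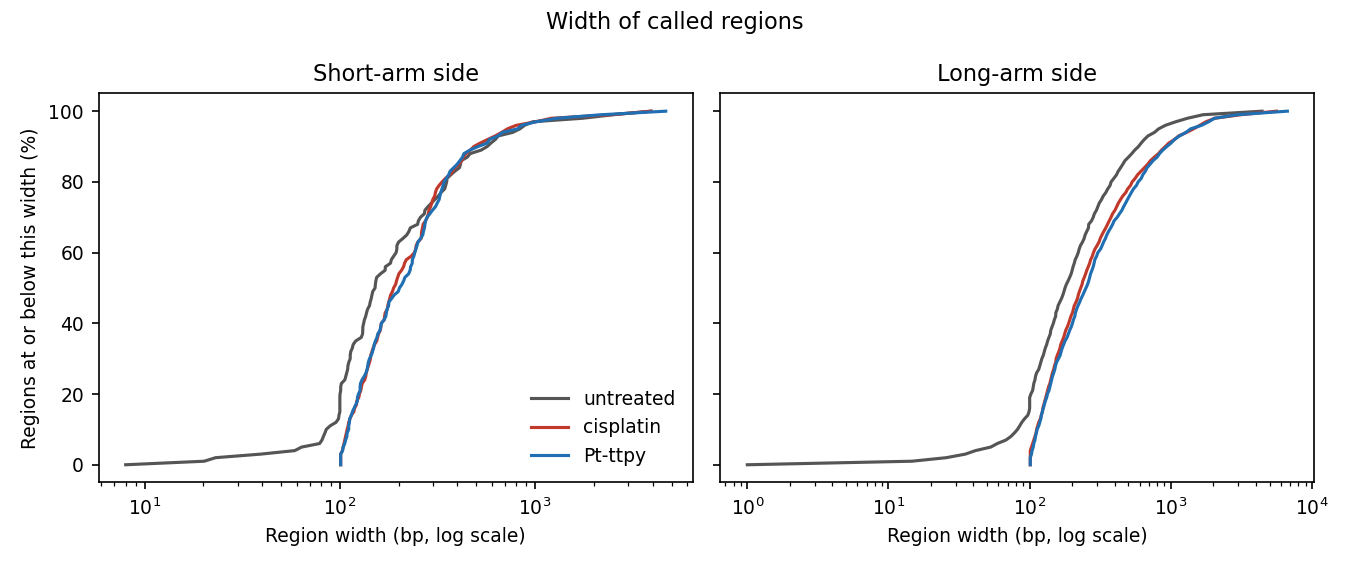
Share of regions (%) at or below a given width (bp, log scale) for the short-arm side (left) and the long-arm side (right), by list. The untreated line has a tail under 100 bp that the treated lists lack and lies to the left of them, on the short-arm side only up to about the upper quartile. The 2 treated lines run close together.

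Covered length separated the lists more than the counts did on the long arm. The regions covered 349.6 kb there untreated, 857 kb with cisplatin and 779.6 kb with Pt-ttpy, or 4.68%, 11.5% and 10.4% of the 7465 kb from the first called base to 150 Mb. Mean widths were 283, 422 and 439 bp. In counts, cisplatin exceeded untreated by 1.64 times (2029 against 1234 regions) and in covered length by 2.45 times, and for Pt-ttpy these ratios were 1.44 (1774 regions) and 2.23. Over the whole lists the ratios were 2.64 in count and 2.62 in covered length for cisplatin, and 1.83 and 2.13 for Pt-ttpy. The long-arm count ratios thus lay below those of the whole lists, and the covered ratios lay near them. The whole lists include the long arm from 150 Mb, with count ratios of 39.2 and 16.1. On the short-arm side the regions covered 36.0, 83.3 and 72.8 kb, 1.03%, 2.39% and 2.09% of 3485 kb. There the count ratios were 2.26 for cisplatin (276 regions) and 1.92 for Pt-ttpy (234 regions), beside covered ratios of 2.31 and 2.02. Between the drugs, cisplatin over Pt-ttpy was 1.14 in count and 1.10 in covered length on the long-arm side, and 1.18 and 1.14 on the short-arm side. With the 9709 top regions of each list by -log10 q, the long-arm side held 1234 untreated, 1102 cisplatin and 1143 Pt-ttpy regions, so the order of the counts turned. Drug and calling depth cannot be told apart with a single list for each drug. The untreated list also lacked 31.4% of its long-arm numbers and held regions under 100 bp. The part of both in the covered ratios was not tested.

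Regions lay close to each other. The median gap between neighbours on the long-arm side was 434 bp untreated, 370 bp with cisplatin and 342 bp with Pt-ttpy, and 72.6%, 75.4% and 78.1% of gaps were at most 1 kb. Joining regions at most 1 kb apart left 339 untreated, 500.0 cisplatin and 389 Pt-ttpy clusters. The longest Pt-ttpy cluster ran from 143434590 to 143544505 (109.9 kb) with 100 regions. The longest cisplatin cluster, from 143431236 to 143520971 (89.7 kb), held 91 regions. The longest untreated cluster, from 142892644 to 142959957 (67.3 kb), held 95. The longest short-arm clusters all began within 6 bp of 121351589, with 27 untreated, 35 cisplatin and 36 Pt-ttpy regions. In number of long-arm clusters Pt-ttpy was nearer to untreated (1.15 times) than cisplatin was (1.47 times).

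Nearly all untreated regions were also called after either drug, as in the genome at large. On the long-arm side 1191 of 1234 untreated regions (96.5%, 95% Wilson interval 95.3 to 97.4) shared at least 1 bp with a cisplatin region, where the whole untreated list gave 96.1%. With Pt-ttpy it was 1174 (95.1%, 93.8 to 96.2), where the whole list gave 95.1%. On the short arm all but 5 (95.9%) and all but 9 (92.6%) did so. These shares stand at the background and say nothing about the chromosome 1 flanks in particular. The intervals cover counting error only, and neighbouring regions are not independent.

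In the other direction fewer than 1 in 2 treated regions lay on an untreated one. On the long-arm side 826 of 2029 cisplatin regions (40.7%, 38.6 to 42.9) did so, where the whole cisplatin list gave 27.3%, and 830 of 1774 Pt-ttpy regions (46.8%, 44.5 to 49.1), where the whole Pt-ttpy list gave 39.5%. The whole lists include the long arm from 150 Mb, where these shares were 1.65% and 4.08%. On the other chromosomes they were 36.7% and 46.5%, so that the Pt-ttpy share of the long-arm side stood at that background. On the short arm it was 104 of 276 (37.7%) and 103 of 234 (44.0%). By window the share ran from 69.5% of cisplatin and 71.7% of Pt-ttpy regions in the window from 142000000 to 10.2% and 20.7% in that from 147000000. In the short-arm window from 120000000 it was 17.7% and 19.4%, and in that from 121000000 it was 55.9% and 61.8%. These shares moved with the overlap rule and with the length of the lists. On the long arm they were 23.6% and 29.1% when an untreated region had to cover 50% of the treated one, and 66.4% and 66.1% among the 9709 top regions of each list. Under the same settings the short-arm shares were 23.6% and 30.8%, and 62.5% and 63.8%.

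Treated regions lay more often on the other drug's regions than on untreated ones. Untreated regions met either drug's list in still larger shares (96.5% for cisplatin and 95.1% for Pt-ttpy on the long-arm side). The untreated list was the shortest and lacked 49.0% of its numbers, and the part of this was not tested. Of the long-arm cisplatin regions 1453 (71.6%, 69.6 to 73.5) met a Pt-ttpy region, where the whole list gave 47.8%, and 1491 Pt-ttpy regions (84.0%, 82.3 to 85.7) met a cisplatin region, where the whole list gave 69.9%. On the other chromosomes these shares were 61.3% and 78.8%, nearer to the long-arm side than the whole lists were. Short-arm shares were 69.2% (191) and 82.9% (194). In sequence, 642.8 kb of the long-arm side was called after both drugs, beside covered lengths of 857 kb for cisplatin and 779.6 kb for Pt-ttpy, and made up 82.4% of the latter. Long-arm regions were wider than those of the whole lists, and the part of width in these shares was not tested.

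**Figure D4:**
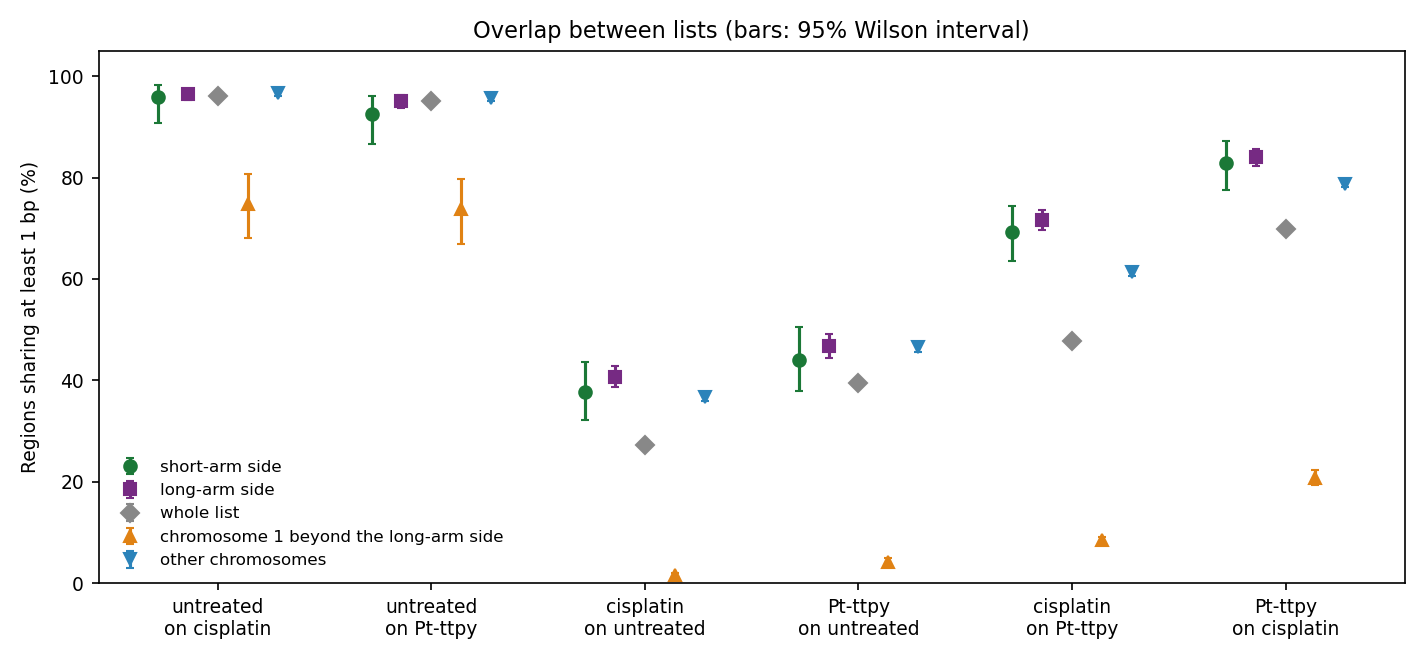
Share of regions (%) of a first list that share at least 1 bp with a second list, for the short-arm side, the long-arm side, the whole list, chromosome 1 from 150 Mb to its end, and the other chromosomes; bars are 95% Wilson intervals. The 2 flanks lie close together in all 6 directions, and chromosome 1 from 150 Mb lies lowest in each.

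Joined into common places, the long-arm side held 2141 places called in at least 1 list. All 3 lists called 708 of them (33.1%), which made up 68.6% of the joined length, with a median of 634.5 bp. Both drugs without the untreated list called 559 places (26.1%, 16.9% of the length, median 260.0 bp). Cisplatin alone called 550.0 places (25.7%), Pt-ttpy alone 266 (12.4%) and the untreated list alone 15 (0.701%). The places of 1 drug alone were short, with medians of 143 and 139 bp. Of the 299 places on the short-arm side, 94 (31.4%) were common to all lists and 79 (26.4%) to both drugs. Cisplatin alone called 81, Pt-ttpy alone 38, and the untreated list 1. The split over the 3 lists was thus much alike on both sides of the centromere. It was not made for the whole lists, where 96.1% of untreated regions met a cisplatin and 95.1% a Pt-ttpy region. The part of list length and of missing untreated numbers in the split was not tested.

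**Figure D5:**
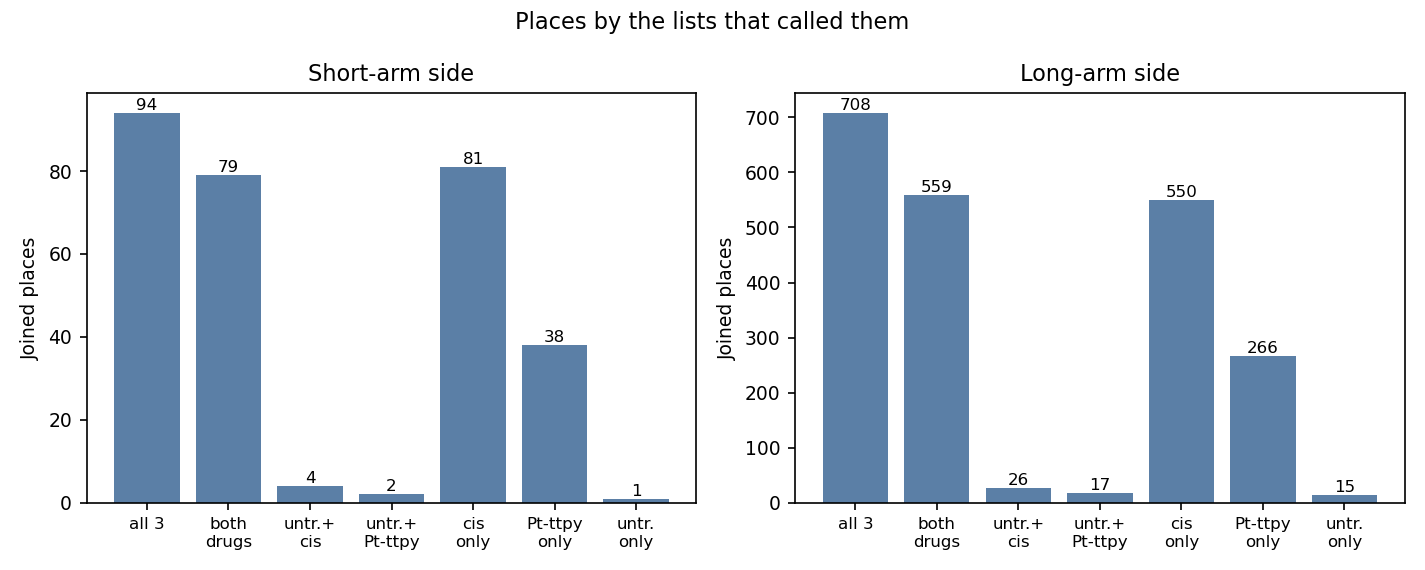
Number of joined places (vertical axis) by the lists that called them, for the short-arm side (left, 299 places) and the long-arm side (right, 2141 places). Places of all 3 lists, of both drugs and of cisplatin alone are the 3 tallest bars on either side, and 15 long-arm places and 1 short-arm place were called in the untreated list alone.

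Treated regions on an untreated region were wider and stronger within their list than those off it, as over the whole lists. There, cisplatin regions on an untreated one had a median width of 357 bp and fold of 6.06, against 148 bp and 3.29 off it. For Pt-ttpy these were 339 bp and 5.72 against 150 bp and 3.39. The split by both other lists was not made for the whole lists, and the part of width in meeting another list was not tested. Of the long-arm cisplatin regions, those on both other lists (800.0) had a median width of 495.5 bp and a median fold of 5.54, those on the Pt-ttpy list only (653) had 192 bp and 3.98, and those on neither (550.0) had 143 bp and 3.46. For Pt-ttpy the regions on both other lists (813) had 488 bp and 5.33, those on the cisplatin list only (678) had 186 bp and 3.78, and those on neither (266) had 139 bp and 3.39. Regions off the other lists covered little. Cisplatin regions on neither list made up 10.7% and Pt-ttpy regions on neither 5.49% of their covered length. The 15 untreated regions on neither treated list had a median width of 91 bp and together covered 1.36 kb.

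Regions that met 1 to 1 were compared by their edges. Between cisplatin and Pt-ttpy 1001 such pairs on the long-arm side had starts a median of 29 bp and ends a median of 28 bp apart, and the Pt-ttpy region was the wider in 449 and the narrower in 544. Between untreated and cisplatin there were 588 pairs with medians of 54 and 49 bp, and the cisplatin region was the wider in 557 (94.7%), by a median of 130.5 bp. Between untreated and Pt-ttpy there were 605 pairs, and the Pt-ttpy region was the wider in 562 (92.9%), by a median of 117 bp. Among short-arm pairs cisplatin was wider than untreated in 79 of 86 pairs and Pt-ttpy in 76 of 88. Between the drugs neither was wider throughout, while either drug's region was wider than the untreated one in most pairs. In the untreated list 25.7% of long-arm summits lay outside their own region. It held 187 long-arm regions under 100 bp, a width class that the treated lists lacked. Its lowest fold was 3.01, against 2.60 for cisplatin and 2.62 for Pt-ttpy. The part of these differences in the pair widths was not tested, and such pairs were not made for the whole lists.

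Strength was compared within each list. The median fold on the long-arm side was 5.41 in the untreated list, below that list's 5.71. It was 4.15 in the cisplatin list, against 3.64 in that whole list and 3.98 on the other chromosomes. In the Pt-ttpy list it was 4.17, above the whole list's 3.91 but below the 4.30 of the other chromosomes. Short-arm medians were 5.86, 4.15 and 4.04. A -log10 q of at least 5 was reached by 67.8% of untreated, 66.0% of cisplatin and 67.6% of Pt-ttpy regions on the long-arm side, against 73.9%, 46.9% and 57.6% of the whole lists. On the other chromosomes it was 75.8%, 60.1% and 67.4%, the last close to the long-arm side. With that limit 837 untreated and 1339 cisplatin regions were left, and Pt-ttpy exceeded untreated by 1.43 times.

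Missing untreated numbers bear on each count set against that list. Numbers 653 to 2245 fall on the long-arm side, and 500.0 of these 1593 (31.4%) were missing. Of the short-arm numbers 73 of 189 (38.6%) were missing, beside 49.0% for the whole list. The missing share differed by window, from 16.0% in that from 142000000 and 22.4% from 143000000 to 51.4% from 144000000 and 65.2% from 120000000. Per untreated number, kept or missing, there were 1.27 cisplatin and 1.11 Pt-ttpy regions on the long-arm side, and 1.46 and 1.24 on the short-arm side. In the window from 120000000 the ratios were 1.88 and 1.42, in place of 5.20 and 3.92 over deposited regions. The part that missing numbers have in the overlaps was not tested.

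The rest of the long arm, from 150 Mb to its end, had few untreated regions in the same lists. It held 179 untreated, 7015 cisplatin and 2889 Pt-ttpy regions, so that the ratios to untreated were 39.2 and 16.1, where the long-arm side had 1.64 and 1.44. Per untreated number, kept or missing, the ratios were 2.71 and 1.11 there, beside 1.27 and 1.11 on the long-arm side, so that for Pt-ttpy the difference was not seen on that count. Its regions were narrower, with medians of 121, 148 and 146 bp, and 9.85% of cisplatin and 8.62% of Pt-ttpy regions reached a -log10 q of 5. Pt-ttpy regions were met by 8.50% of cisplatin regions there and untreated regions by 1.65%, and 20.8% of Pt-ttpy regions met a cisplatin one. Missing numbers made up 93.3% of the untreated numbers there. With 1 list a condition, these differences between parts of the arm are given as values without a test.

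The limits of the interval fell differently in each list. At 150 Mb both treated lists ran on without a break. The last cisplatin region inside ended at 149999993 (fold 3.64) and the first outside began at 150010753 (fold 3.12), and for Pt-ttpy these were 149999914 (fold 3.01) and 150004979 (fold 3.01). The untreated list had its last region inside at 149740701 to 149740867 (fold 5.11) and the next at 150390173 (fold 4.51). At the lower limit no list had a region near the limit, the closest inside being the cisplatin region at 118824785 and the closest outside one at 117322179 to 117322308 (fold 3.29). Counts fell off just past the upper limit, with 7 untreated, 175 cisplatin and 81 Pt-ttpy regions in the window from 150000000 and none, 43 and 17 in that from 151000000.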

How the data were processed

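Per the submitters' processing notes, BWA 0.7.5, MACS2 2.1.0 and the build hg19 were used. How the caller was set, which control it used and how replicates were combined is not stated there. Per the labels' protocols, sonication gave fragments of 200 to 700 bp, sequenced as single reads of 50 bases. The authors deposited, per region, a fold ratio over background, a -log10 p-value, a -log10 q-value and a score, found to equal 10 times the latter without its decimals. The lists were treated as 1 sample each. Regions on chromosomes 1 to 22 and X were used and positions are 1-based. Overlap meant at least 1 bp shared. Regions at most 1 kb apart were joined into clusters, and blocks were parted at empty stretches over 50 kb, which was set after seeing the data. Named regions are the 5 widest and the 5 of highest -log10 q per list and side (ties by width, then start), those next to the gap and those at the limits, with their matches. The interval and these choices were made with earlier results of these data known. The overlap code was tested on simulated regions. Alternatives were a -log10 q of at least 5, joining, 50% overlap and equal numbers of top regions. Tools were Python 3.11.15 with matplotlib 3.10.9, scipy 1.17.1, pandas 2.3.3 and numpy 2.4.6.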

Additional observations from a re-analysis of the deposited data

How the results depend on the processing

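No paired analysis was possible because each group has 1 list for both of its samples, and for the same reason no replicate could be left out. Depth is unknown. A count or covered length was taken to have moved when it changed by over 1.5 times, and a share or median when it left its own 95% interval. Of 80 alternative values 36 stayed and 44 moved. Values below are in the order untreated, cisplatin, Pt-ttpy unless named, and the direction of treated against untreated counts held under joining and under the stricter q. With a -log10 q of at least 5, covered lengths stayed, and this was the only alternative run for them. Counts moved to 183 (cisplatin) and 148 (Pt-ttpy) on the short-arm side and to 1339 (cisplatin) on the long-arm side. Median widths moved to 196, 232 and 239 bp on the short-arm and 228, 315 and 338.5 bp on the long-arm side, and the share of long-arm cisplatin regions on Pt-ttpy regions to 73.7%. With regions at most 1 kb apart joined, counts were 52, 89 and 75 on the short-arm and 339, 500.0 and 389 on the long-arm side. Median widths became 670.0 (cisplatin) and 679 bp (Pt-ttpy) on the short-arm side and 444, 435 and 513 bp on the long-arm side, so that untreated no longer had the narrowest median there. Joining the pieces of a peak number moved the long-arm untreated median to 199 bp. With missing numbers counted, an alternative chosen after seeing the data, the short-arm untreated count became 189. Requiring 50% of a region to be covered, cisplatin on untreated was 23.6% on both sides, Pt-ttpy on untreated 30.8% (short-arm) and 29.1% (long-arm), cisplatin on Pt-ttpy 60.5% and 64.0%, Pt-ttpy on cisplatin 75.6% and 77.3%, and untreated on cisplatin 95.1% and on Pt-ttpy 93.5% on the long-arm side. With the 9709 top regions of each list, untreated on cisplatin was 84.4% (short-arm) and 89.3% (long-arm), untreated on Pt-ttpy 80.3% and 88.8%, cisplatin on untreated 62.5% and 66.4%, Pt-ttpy on untreated 63.8% and 66.1%, Pt-ttpy on cisplatin 75.4% and 79.6%, and cisplatin on Pt-ttpy 79.8% on the long-arm side. The long-arm side then held 1234, 1102 and 1143 regions, and the untreated list had the most. On the short arm it was 144 and 138 for the drugs. Why shares and order move with the length of the lists was not tested.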
